A study of Mus musculus with 23 samples.

Results

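Replication-dependent histone genes encode the core histones H2A, H2B, H3 and H4 and the linker histone H1 that package newly made DNA. A gene counted as a member when its symbol was of this family (H2ac, H2bc, H3c, H4c and H1f1 to H1f6, or the older Hist forms) and a probe set carried that symbol alone. Of 19938 genes tested, 27 were members. They comprised 5 H1, 4 H2A, 9 H2B, 3 H3 and 6 H4 genes, each measured by 1 probe set. All 27 matched RefSeq by Entrez identifier (GRCm38.p6), with 23 on chromosome 13 and 4 on chromosome 3.

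RNA came from macrophages cultured from the bone marrow of C57BL/6 wild-type animals. The marrow cells were kept in M-CSF, a macrophage growth factor, for 6 days (10 ng/mL), and treatment began 1 to 3 days after M-CSF was taken away. The 23 single-channel arrays formed 6 groups that shared this genotype and culture. Vehicle was bovine serum albumin (BSA) at 125 µM for 5 h (n = 3). Lipopolysaccharide (LPS), a bacterial product sensed through TLR4, was added for 5 h at 1 ng/mL (n = 4). Stearic acid (SA), a saturated fatty acid, and oleic acid (OA), of the same chain length with a double bond, were each given on BSA at 250 µM for 5 h or for 20 h (n = 4 per acid and time). For the vehicle and LPS samples the series text states 4 h, not the 5 h of the sample labels used here. No group received vehicle for 20 h, so changes between the times combine treatment and culture time. Per the labels the samples were replicate wells, and per the series text biological replicates. If they were wells of 1 culture, the p-values measure only the spread between wells.

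Most histone genes of this family are short, have no introns and are transcribed mainly in S phase, when DNA is copied. Their messages end in a stem-loop instead of a poly(A) tail. The stem-loop binding protein (encoded by Slbp) and the U7 small nuclear ribonucleoprotein (with Lsm10 and Lsm11) form that end, and the messages are degraded when DNA synthesis stops. Npat, a substrate of cyclin E with Cdk2, drives their transcription. The family is clustered, and near-identical copies can share probe sequence, so a probe set named for 1 gene may also report its copies. About 10 ng of RNA was amplified per sample, and the priming of that step, which bears on messages without a poly(A) tail, is not given in the sources used here. In RNA from whole cultures, fewer cells in S phase and less histone RNA per cell cannot be told apart.

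The 150 bases before the start site are shown for 4 genes among the largest falls with SA and for H2bc8, whose change with SA against OA was 0.01 on the log2 scale. They come from RefSeq (GRCm38.p6), with chromosome 13 coordinates given for each and the last base next to the start site. Capitals mark matches on either strand to the octamer of H2B promoters (ATTTGCAT), the TATA box (TATAAA), the CCAAT box (CCAAT) and an element known from H1 promoters (AAACACAAA).
H2bc14, chr13:21721894-21722043, plus strand: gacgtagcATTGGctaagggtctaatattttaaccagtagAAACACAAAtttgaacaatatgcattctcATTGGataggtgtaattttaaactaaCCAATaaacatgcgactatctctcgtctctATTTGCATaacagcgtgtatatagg
H2ac4, chr13:23750938-23751087, plus strand: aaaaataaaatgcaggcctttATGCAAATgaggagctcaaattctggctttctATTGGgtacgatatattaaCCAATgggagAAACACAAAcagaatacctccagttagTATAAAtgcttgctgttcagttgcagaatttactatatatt
H1f5, chr13:21780626-21780775, minus strand: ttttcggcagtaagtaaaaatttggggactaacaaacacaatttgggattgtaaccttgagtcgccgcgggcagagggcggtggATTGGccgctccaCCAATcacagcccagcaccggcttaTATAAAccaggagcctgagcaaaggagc
H2bc3, chr13:23746584-23746733, plus strand: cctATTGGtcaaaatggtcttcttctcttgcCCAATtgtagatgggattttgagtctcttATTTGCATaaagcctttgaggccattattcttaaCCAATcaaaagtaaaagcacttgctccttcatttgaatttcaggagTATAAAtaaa
H2bc8, chr13:23571250-23571399, plus strand: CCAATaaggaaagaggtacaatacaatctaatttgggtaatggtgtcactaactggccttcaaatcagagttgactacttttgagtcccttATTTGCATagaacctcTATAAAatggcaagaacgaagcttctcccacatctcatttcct

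Promoter entries of 300 bases (250 before and 50 after the start site) were held for 23 of the 27 members, all but H3c7, H2bc4, H2bc21 and H4c14. The octamer was found in 8 of the 23 (34.8%), against 1.74% of all 32851 mouse promoter entries. Those 8 were H2ac1, H2ac4, H2ac8, H2bc1, H2bc14, H2bc18, H2bc3 and H2bc8, and 2 of the 6 distinct genomic matches were each shared by a pair of neighbouring genes. CCAAT occurred in 20 members (87.0% against 37.4%), TATAAA in 15 (65.2% against 13.6%) and AAACACAAA in 3 (13% against 0.767%). No member held ACGTCCG, a core of the site of the H4 gene regulator HINFP, which 1.08% of all entries held. Among members with an entry, 5 of the 14 that fell with SA against OA at 20 h and 3 of the 9 others held the octamer. With LPS these counts were 7 of the 14 that fell and 1 of the 9 others. These matches describe the letters in the window and do not show binding.

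The median of the 23 array medians was 4.04 on the log2 scale (range 3.98 to 4.12). Of the 27 members, 5 had a mean over all arrays below it (18.5%), against 46.9% of all genes tested. They were the linker histone genes H1f3 and H1f6 (the testis form H1t), H2ac8, H2bc1 (the testis form Th2b) and H3c7, and each lay below it in all 6 groups. H2ac4 lay below it with 20 h of SA and H3c15 in 2 groups, whereas 20 members lay above it in every group. The 2 groups of H3c15 were LPS (mean 3.98) and 20 h of OA (mean 4.03). In the OA group replicate 2 measured 2.88, and the other arrays, at 4.44, 4.55 and 4.25, lay above the line. By class, 2 of 5 H1 genes, 1 of 4 H2A, 1 of 9 H2B, 1 of 3 H3 and 0 of 6 H4 genes were below. Changes of genes near or below this line are of uncertain size.

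SA and OA were compared first at 20 h, the comparison of a saturated with an unsaturated acid at equal dose. Of the 27 members, 15 fell with SA and 1 rose (55.6% and 3.70%). Over all genes tested, 8.95% were lower and 7.72% were higher, by limma with a Benjamini-Hochberg adjusted p under 0.05. The median log2 change of members was -0.53, against 0.03 for all genes. On every array of the SA group, each of the 15 lay below all arrays of the OA group. Of all genes that fell in this comparison 92.7% were separated in this way, so the separation is no particular feature of the family. By class, 3 of 5 H1 genes, 2 of 4 H2A, 5 of 9 H2B, 5 of 6 H4 and 0 of 3 H3 genes fell.

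**Figure D1:**
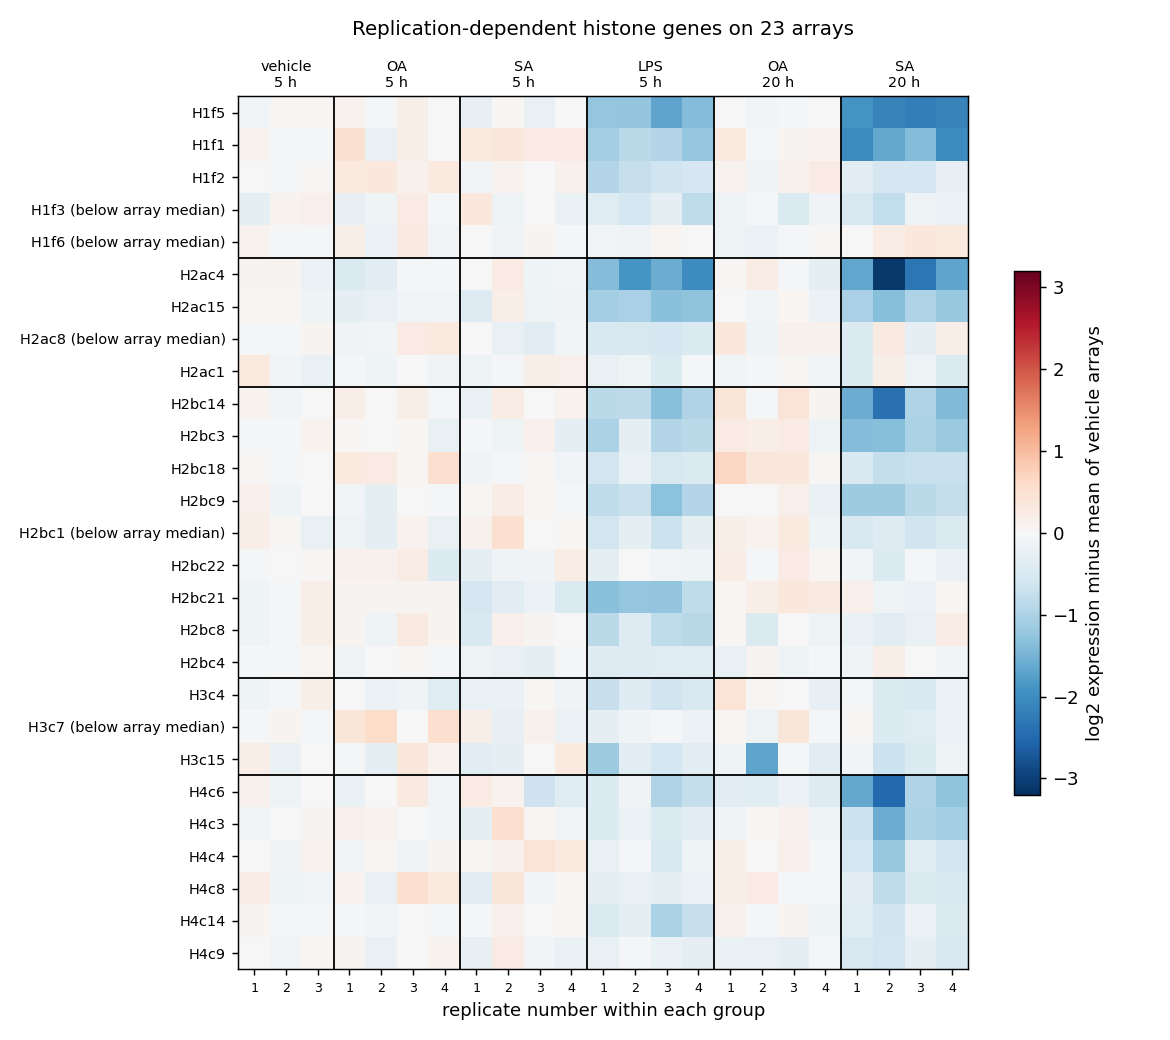
Log2 expression of each member minus its mean on the 3 vehicle arrays (colour) for 27 genes (rows, by histone class) and 23 arrays (columns, by group). Blue fields fill the LPS and 20 h SA columns of many H1, H2A, H2B and H4 genes, while the OA columns and the 5 h SA columns stay near the vehicle level, apart from H3c15 on 20 h OA replicate 2.

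The linker histone genes H1f5 and H1f1, whose products bind the DNA between nucleosomes, were among the genes with the largest falls. H1f5 measured 7.33, 7.25, 7.31 and 7.33 on the OA arrays at 20 h and 5.42, 5.20, 5.12 and 5.21 on the SA arrays (log2 level). It fell by 2.07 ± 0.10 on the log2 scale (SE, limma adjusted p = 1.5e-13), a level 4.20-fold lower. The SA arrays lay close together and far under the OA arrays. H1f1 measured 6.71, 6.37, 6.49 and 6.50 with OA and 4.37, 4.77, 5.01 and 4.39 with SA. It fell by 1.89 ± 0.14 (SE, limma adjusted p = 1.67e-10), again without overlap. H1f2, also a linker histone gene, fell by 0.53 ± 0.10 (SE, limma adjusted p = 0.000246). H1f6 had a log2 change of 0.32 ± 0.10 (SE, limma adjusted p = 0.0318), at levels below the array median and with overlapping groups. That call was lost when the arrays were centred on their medians (0.29) or quantile-normalised (0.28), with a variance trend (0.32), in a fit of the compared groups alone (0.32), and without any 1 of 6 arrays (0.28 to 0.33).

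The H2A gene H2ac4 measured 6.16, 6.36, 6.08 and 5.83 on the OA arrays at 20 h and 4.46, 3.04, 3.81 and 4.44 on the SA arrays. It fell by 2.17 ± 0.22 on the log2 scale (SE, limma adjusted p = 3.24e-08), a level 4.49-fold lower. The SA arrays spread widely around the array median, and all lay below the OA arrays. H2ac15, also an H2A gene, measured 6.95, 6.90, 7.04 and 6.80 with OA and 5.93, 5.61, 5.99 and 5.77 with SA, a fall of 1.10 ± 0.11 (SE, limma adjusted p = 5.36e-08). The testis H2A gene H2ac1 had a log2 change of -0.17 (95% confidence interval -0.43 to 0.10), and H2ac8 one of -0.18 (-0.47 to 0.12). Neither passed the test.

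Among the H2B genes, H2bc14 measured 9.20, 8.77, 9.22 and 8.91 with OA at 20 h and 7.21, 6.43, 7.82 and 7.40 with SA. It fell by 1.81 ± 0.19 (SE, limma adjusted p = 6.85e-08). H2bc3 measured 5.77, 5.71, 5.75 and 5.34 with OA and 4.11, 4.14, 4.47 and 4.32 with SA, a fall of 1.38 ± 0.13 (SE, limma adjusted p = 2.12e-08). In both genes the highest SA array stayed under the lowest OA array. H2bc18 measured 5.42, 5.11, 5.08 and 4.80 with OA and 4.26, 3.98, 4.03 and 4.05 with SA, a fall of 1.02 ± 0.11 (SE, limma adjusted p = 1.88e-07). H2bc9 measured 7.92, 7.95, 8.08 and 7.72 with OA and 6.78, 6.78, 7.05 and 7.15 with SA, a fall of 0.98 ± 0.12 (SE, limma adjusted p = 1.12e-06). H2bc1, the testis form below the array median, fell by 0.62 ± 0.13 (SE, limma adjusted p = 0.000897).

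The other 4 H2B genes did not pass the test. H2bc4 measured 10.27, 10.60, 10.38 and 10.46 with OA at 20 h and 10.39, 10.73, 10.51 and 10.42 with SA, a log2 change of 0.09 (95% confidence interval -0.09 to 0.27). H2bc8 measured 7.33, 6.84, 7.28 and 7.13 with OA and 7.09, 6.92, 7.06 and 7.54 with SA, a log2 change of 0.01 (-0.30 to 0.32). The groups of these genes overlapped, and both intervals excluded a change as large as those of H2bc14 and H2bc3. H2bc21 had a log2 change of -0.25 (-0.48 to -0.02) and H2bc22 one of -0.32 (-0.58 to -0.05), with adjusted p = 0.151 and 0.111 by limma.

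**Figure D2:**
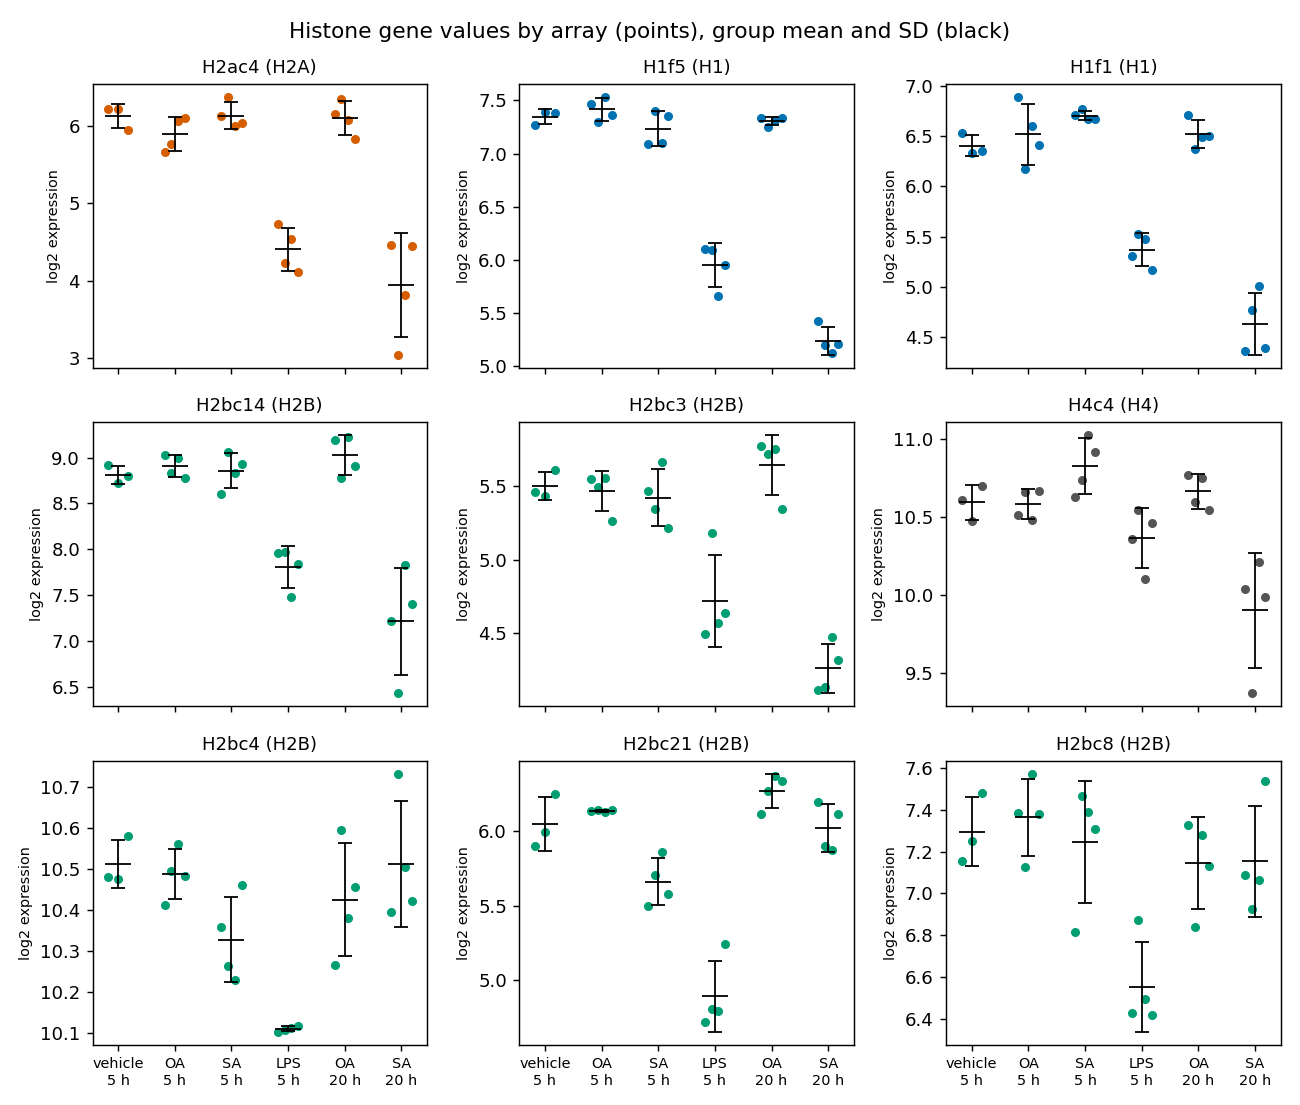
Log2 expression (y axis) of 9 histone genes on every array (points) by group (x axis), with the group mean and SD in black and a separate y range per gene. H2ac4, H1f5, H1f1, H2bc14 and H2bc3 were lower with LPS and with 20 h of SA, and H4c4 fell with 20 h of SA. H2bc4, H2bc21 and H2bc8 fell with LPS and did not pass with SA against OA at 20 h.

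Of the H4 genes, H4c6 measured 6.07, 6.05, 6.25 and 6.02 with OA at 20 h and 4.78, 3.95, 5.46 and 5.13 with SA. It fell by 1.27 ± 0.24 (SE, limma adjusted p = 0.000284), with the widest interval among the members that fell (-1.76 to -0.78). H4c3 measured 6.19, 6.34, 6.44 and 6.16 with OA and 5.62, 4.70, 5.27 and 5.21 with SA, a fall of 1.08 ± 0.15 (SE, limma adjusted p = 7.17e-06). H4c4 measured 10.77, 10.60, 10.75 and 10.54 with OA and 10.03, 9.37, 10.21 and 9.99 with SA, a fall of 0.76 ± 0.14 (SE, limma adjusted p = 0.00016). In these 3 genes replicate 2 of 20 h SA was the lowest array. H4c8 measured 5.29, 5.36, 5.02 and 5.03 with OA and 4.75, 4.27, 4.62 and 4.57 with SA, a fall of 0.62 ± 0.15 (SE, limma adjusted p = 0.00419). H4c14 fell by 0.42 ± 0.12 (SE, limma adjusted p = 0.012). H4c9 had a log2 change of -0.28 (-0.50 to -0.06) that missed the threshold (limma adjusted p = 0.075). The 3 H3 genes, H3c4, H3c7 and H3c15, had changes of -0.35 (-0.62 to -0.08), -0.30 (-0.59 to -0.01) and 0.20 (-0.34 to 0.74), and none passed. The value of H3c15 leans on 20 h OA replicate 2, which measured 2.88. The other OA arrays measured 4.44, 4.55 and 4.25, and the SA arrays 4.49, 3.89, 4.11 and 4.44.

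One SA array at 20 h, replicate 2, differed from the rest of its group. The SD of its deviations from the group mean over all genes was 0.215, against 0.153 to 0.161 on the other 3 arrays, and members averaged 0.20 below their group means on it. Without that array, 14 members fell with SA against OA at 20 h and none rose. H4c14 no longer passed (-0.35, limma adjusted p = 0.0545).

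At 5 h, SA and OA differed little in the family. H2bc21 measured 5.50, 5.71, 5.86 and 5.58 with SA and 6.13, 6.15, 6.13 and 6.14 with OA, and fell by 0.48 ± 0.11 (SE, limma adjusted p = 0.00954) without overlap. No other member of the 27 passed the test, and none rose. Over all genes 2.37% were lower and 3.3% were higher. The median member change was -0.06, against 0.01 for all genes, and the median 95% interval of a member reached 0.27 to either side. H1f5 and H2ac4 had log2 changes of -0.18 (-0.39 to 0.03) and 0.23 (-0.21 to 0.68).

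**Figure D3:**
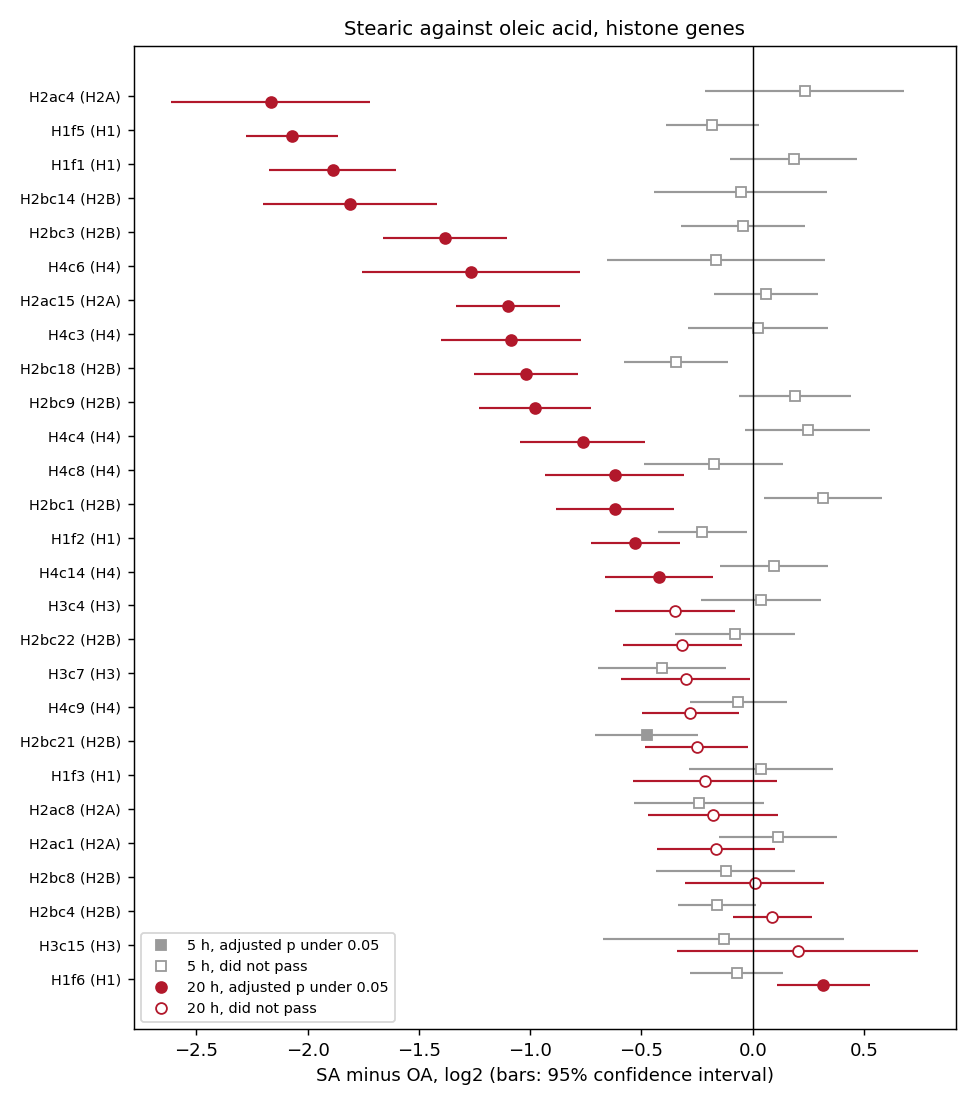
Log2 difference of SA minus OA (x axis) at 5 h (grey squares) and 20 h (red circles) for 27 genes ordered by the 20 h value, with 95% confidence intervals as bars and filled symbols at an adjusted p under 0.05. At 20 h, 15 genes lie left of 0 with filled symbols and H1f6 right of it, whereas at 5 h H2bc21 alone is filled.

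The change of this difference from 5 h to 20 h was tested as an interaction. It passed the test as negative for 11 members and as positive for none, against 3.4% and 1.58% of all genes (limma adjusted p under 0.05). H2ac4 had the largest, -2.40 ± 0.31 (SE, limma adjusted p = 7.91e-06), and then came H1f1 at -2.07, H1f5 at -1.89, H2bc14 at -1.75, H2bc3 at -1.34 and H2bc9 at -1.17. The median over members was -0.44, with 20 estimates negative and 7 positive. Within SA, 16 members were lower at 20 h than at 5 h and H2bc21 was higher (0.36 ± 0.11, SE, limma adjusted p = 0.0333), against 6.57% lower and 6.23% higher of all genes. In 15 of the 16 the groups did not overlap, H4c8 being the exception, against 89.0% of all genes that fell. All 6 H4 genes were among the 16, but H4c9 lost its call in a fit of the compared groups alone (-0.41) and H4c8 without replicate 2 of SA at 5 h (-0.40) or at 20 h (-0.44). The rise of H2bc21 was lost when arrays were centred (0.32), in a fit of the compared groups alone (0.36) and without any 1 of 5 arrays (0.30 to 0.38). H1f1, which measured 6.70, 6.77, 6.67 and 6.66 with 5 h of SA, fell by 2.07 ± 0.14 (SE, limma adjusted p = 4.4e-11).

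OA was set against vehicle at 5 h and against itself over time. None of the 27 members passed the test in either (limma adjusted p under 0.05). At this adjusted threshold, 0.0201% of all genes were higher and 0.0502% lower than vehicle. From 5 h to 20 h, 2.58% were higher and 1.8% lower. At an unadjusted p under 0.05, 3 members were higher than vehicle and 0 lower, and 0 were higher and 2 lower at 20 h than at 5 h. Shares of all genes at the unadjusted threshold were not computed, so these member counts have no reference. The median member changes were 0.01 and 0.03. SA against vehicle at 5 h likewise gave 0 members, against 1.94% higher and 1.39% lower of all genes (limma adjusted p under 0.05). At an unadjusted p under 0.05, 0 members were higher and 1 lower, again without a reference over all genes. Member changes there ran from -0.39 to 0.30. These comparisons share the vehicle or OA arrays with others above.

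LPS was set against vehicle at 5 h. Of the 27 members, 17 fell and none rose (63.0%), against 13.2% lower and 9.22% higher of all genes (limma adjusted p under 0.05). The median member change was -0.57, against -0.02 for all genes, and the sign was negative for all 27. In 16 of the 17 the groups did not overlap, H1f3 being the exception, against 93.9% of all genes that fell. By class, 4 of 5 H1 genes, 3 of 4 H2A, 8 of 9 H2B, 1 of 3 H3 and 1 of 6 H4 genes fell.

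H2ac4 measured 6.22, 6.22 and 5.95 on the vehicle arrays and 4.73, 4.23, 4.54 and 4.11 on the LPS arrays. It fell by 1.73 ± 0.23 (SE, limma adjusted p = 2.7e-06), with every LPS array well below every vehicle array. H1f5 measured 7.26, 7.39 and 7.38 with vehicle and 6.10, 6.09, 5.67 and 5.95 with LPS, a fall of 1.39 ± 0.11 (SE, limma adjusted p = 2.37e-10). H2ac15 measured 7.05, 7.03 and 6.84 with vehicle and 5.87, 5.93, 5.63 and 5.70 with LPS, a fall of 1.19 ± 0.12 (SE, limma adjusted p = 3.16e-08). H2bc21 measured 5.90, 6.00 and 6.25 with vehicle and 4.72, 4.81, 4.79 and 5.24 with LPS, a fall of 1.16 ± 0.12 (SE, limma adjusted p = 4.63e-08). These 4 genes lay in separate ranges in the LPS and vehicle groups, although H2bc21 was among the members that did not pass with SA against OA at 20 h. H1f1 measured 6.52, 6.33 and 6.35 with vehicle and 5.30, 5.53, 5.47 and 5.17 with LPS, a fall of 1.03 ± 0.15 (SE, limma adjusted p = 7.13e-06). H2bc14 measured 8.92, 8.72 and 8.80 with vehicle and 7.96, 7.97, 7.47 and 7.84 with LPS, a fall of 1.00 ± 0.20 (SE, limma adjusted p = 0.000553).

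H2bc9, H2bc3, H2bc8, H1f2, H4c14, H3c4 and H2bc18 fell by 0.45 to 0.94 with LPS. H2bc4 measured 10.48, 10.48 and 10.58 with vehicle and 10.10, 10.11, 10.11 and 10.12 with LPS, a small fall of 0.40 ± 0.09 (SE, limma adjusted p = 0.00187) with little spread. H1f3, H2ac8 and H2bc1, all below the array median, changed by -0.51, -0.50 and -0.48. These 3 calls were each lost without 1 of the arrays, for H1f3 vehicle replicate 2 or 3 or LPS replicate 2 or 4 (-0.50 to -0.41), for H2ac8 vehicle replicate 3 (-0.46), and for H2bc1 vehicle replicate 1 or LPS replicate 3 (-0.41 to -0.37). The call of H1f3 was also lost when arrays were centred (-0.48).

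The H4 genes that fell with SA did not, apart from H4c14, pass with LPS. H4c6 measured 6.56, 6.29 and 6.42 with vehicle and 5.99, 6.32, 5.46 and 5.65 with LPS, a log2 change of -0.57 (-1.10 to -0.04; limma adjusted p = 0.124). H4c4 measured 10.60, 10.47 and 10.70 with vehicle and 10.36, 10.55, 10.10 and 10.46 with LPS, a change of -0.23 (-0.53 to 0.08; limma adjusted p = 0.326). H4c3 had a log2 change of -0.36 (-0.70 to -0.02; limma adjusted p = 0.139) and H4c8 one of -0.27 (-0.61 to 0.06; limma adjusted p = 0.281). The intervals of H4c3 and H4c6 lay below 0, although their adjusted p-values missed the threshold.

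The lower members with SA against OA at 20 h and with LPS against vehicle, comparisons that share no array, had 11 genes in common, 73.3% of the 15 and 64.7% of the 17. Of all 27 members 63.0% fell with LPS and 55.6% with SA, so the members in common are near what these shares alone give. Over all genes, 805 fell in both, 45.1% of those lower with SA and 30.7% of those lower with LPS. The 11 members in common were H1f1, H1f2, H1f5, H2ac15, H2ac4, H2bc1, H2bc14, H2bc18, H2bc3, H2bc9 and H4c14. H4c3, H4c4, H4c6 and H4c8 passed with SA alone, and H1f3, H2ac8, H2bc21, H2bc4, H2bc8 and H3c4 with LPS alone. The difference between both changes was tested for each gene, in a contrast chosen after these calls were seen. The SA change lay below the LPS change for 6 members (22.2%) and above it for 3 (11.1%), against 8.34% and 8.99% of all genes (limma adjusted p under 0.05). The share above is near that of all genes and is no result about the family.

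Of the 3 above, the difference was 0.91 ± 0.17 for H2bc21 (SE, limma adjusted p = 2e-04), 0.75 ± 0.22 for H2bc8 (SE, limma adjusted p = 0.0184) and 0.49 ± 0.13 for H2bc4 (SE, limma adjusted p = 0.00615). The 6 below were H1f1 (-0.85 ± 0.20, SE), H2bc14 (-0.81 ± 0.28, SE), H4c3 (-0.73 ± 0.22, SE), H1f5 (-0.68 ± 0.15, SE), H2bc3 (-0.60 ± 0.20, SE) and H2bc18 (-0.57 ± 0.17, SE). Of H4c4, H4c6 and H4c8, none passed this test, so they are not shown to differ between the treatments. Without vehicle replicate 1, 20 h OA replicate 3 or 20 h SA replicate 2, 3 members were below. The call of H2bc14 (limma adjusted p = 0.0462) was lost with a variance trend, in a fit of the compared groups alone, with a replicate block and without any 1 of 17 arrays (-0.86 to -0.54). That of H2bc3 (limma adjusted p = 0.036) was lost in the fit of the compared groups alone and without any 1 of 8 arrays (-0.60 to -0.45). H4c3 lost its call without each of the 3 arrays named above (-0.68 to -0.56), and H2bc8 without vehicle replicate 3 (0.66). The times also differ between both comparisons, 20 h and 5 h, and cannot be told apart from the treatments.

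**Figure D4:**
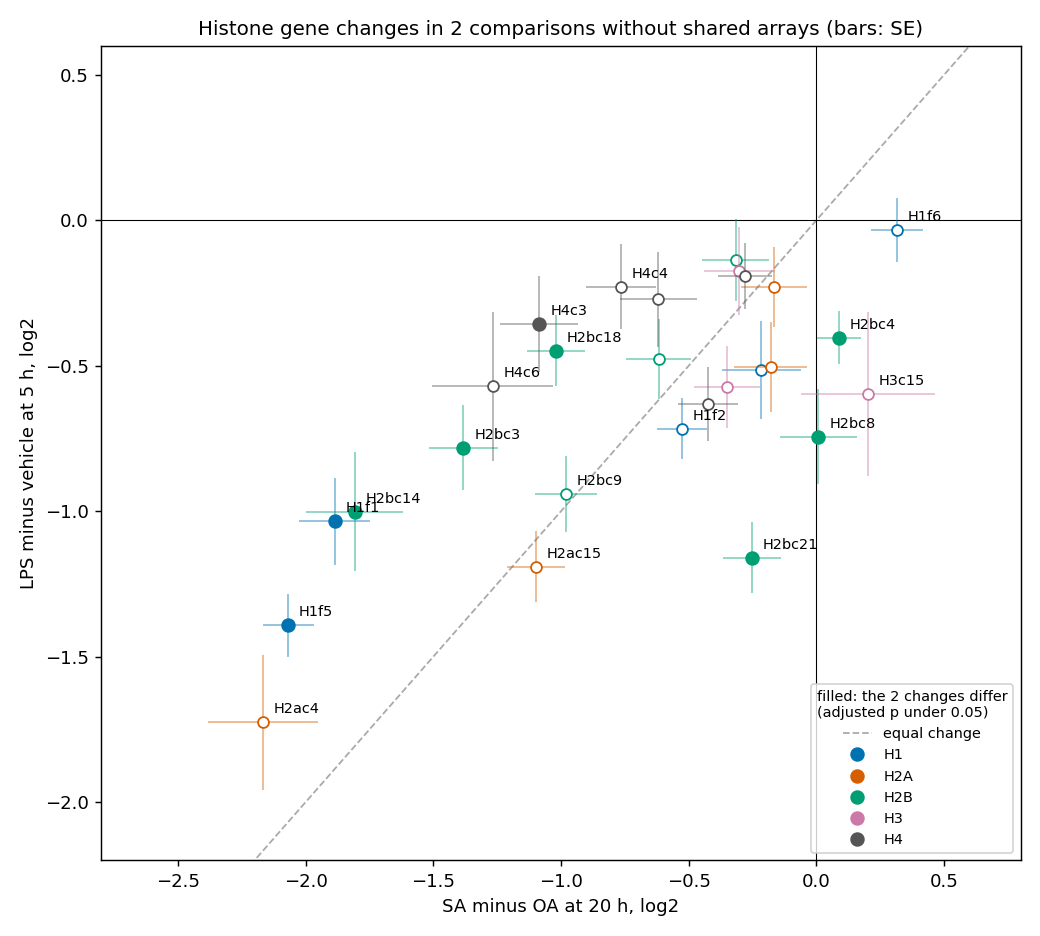
Log2 change of 27 genes with SA against OA at 20 h (x axis) and with LPS against vehicle at 5 h (y axis), coloured by histone class, with SE bars, filled where the changes differ at an adjusted p under 0.05 and a dashed line of equal change. H2bc21, H2bc8 and H2bc4 lie between -0.25 and 0.09 on the x axis and between -1.16 and -0.40 on the y axis, while H1f1, H1f5 and H2bc14 lie farther from 0 on the x axis.

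Some of these H2B genes also differ from the rest in gene length. In RefSeq, 24 members span 375 to 903 bases (median 498.5), the usual size of a gene without introns. H2bc21 spans 2667, H2bc4 8282 and H2bc22 14079 bases. Some genes of the family are known to also give polyadenylated or spliced messages, and which form each probe set reports was not tested. Of the 3 long genes 0 passed as lower with SA against OA at 20 h, against 15 of the 24 short ones. With LPS 2 of 3 and 15 of 24 fell, and within SA from 5 h to 20 h 0 of 3 and 16 of 24. This split was noticed in the data and is a description. H2bc8, H3c4 and others that did not pass with SA against OA at 20 h are short.

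Another 26 probe sets named a histone gene of the family together with other genes, so they were no members, and 36 genes of the family were measured on such probe sets only. Of the 27 members, 18 were also named there. All 26 were lower with SA against OA at 20 h, against 5.91% of all 35556 probe sets, with a median log2 change of -1.33 (limma adjusted p under 0.05 over all probe sets). None of the 26 was lower at 5 h (1.38% of all), 23 were lower with LPS (10.2% of all) and 24 were lower at 20 h than at 5 h of SA (4.49% of all). These probe sets are not independent of each other, and 2 of them repeat the 23 values of another. The 10 that named H3 genes alone all carried the same 12 symbols, and 5 of the 6 for H4 shared a list. Those for H2B fell into a set of 3 and a set of 4 with the same symbols. Their counts are thus largely repeated measurements of the same gene groups.

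The 10 that named H3 genes alone averaged 8.92 to 9.24 on the OA arrays at 20 h and 7.26 to 7.42 on the SA arrays, a level 3.42-fold lower. With vehicle they averaged 8.96 to 8.99 and with LPS 7.71 to 8.21, 2.11-fold lower. The ranges were far apart in both comparisons, and all 10 H3 probe sets fell in each. Of the 3 single-gene H3 members, 0 passed with SA against OA at 20 h. For the 7 H2B probe sets the fold was 2.46 with SA and 1.90 with LPS, and for the 6 H4 probe sets 1.73 and 1.34. Of the latter, 6 fell with SA and 4 with LPS. Among those that fell with LPS, a probe set below the array median (mean 3.10 over all arrays) had the largest change, -0.83. The other H4 probe sets changed by -0.39 to -0.30 with LPS, and a pair of those that fell held the same values.

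The proteins that make and handle these messages were examined from lists of related genes. For transcription, 9 genes were measured, of which 2 fell (22.2%) and none rose with SA against OA at 20 h (limma adjusted p under 0.05; 8.95% and 7.72% of all genes). These were the cyclin E genes Ccne2 (-0.92 ± 0.14, SE) and Ccne1 (-0.49 ± 0.12, SE). Npat and its partner Casp8ap2 had changes of 0.19 and -0.12 and did not pass. With LPS, 3 fell (33.3%) and 1 rose (11.1%), against 13.2% and 9.22% of all genes. Npat fell by 0.76 ± 0.15 (SE), Ccne2 by 1.13 and the kinase gene Cdk2 by 0.63, and Hinfp, the activator of H4 genes, rose by 0.87 ± 0.15 (SE).

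For the formation of the message end, 2 of 20 genes fell and 1 rose with SA against OA at 20 h, Cstf2 (-0.35), Snrpe (-0.32) and Cpsf2 (0.37). These shares, 10% and 5%, are near those of all genes. Slbp had a log2 change of -0.41 (95% confidence interval -0.72 to -0.10) that missed the threshold, and Lsm10 and Lsm11 had changes of -0.06 and 0.04. With LPS 6 fell (30%, against 13.2% of all genes) and 1 rose (5%, against 9.22%). Among them were Ncbp2 of the cap-binding complex (-0.63), Slbp (-0.60 ± 0.16, SE), Lsm10 (-0.47) and Cpsf2 (0.56). Of 10 genes of histone message decay, 0 passed with SA against OA. With LPS 4 rose (40%) and 1 fell (10%), against 9.22% and 13.2% of all genes, so the share that fell is near that of all genes. The decapping enzyme gene Dcp2 rose by 1.70 ± 0.10 (SE), the exonuclease gene Xrn1 by 1.12 and the uridylyltransferase gene Tut7 by 0.92, and Eri1, an exonuclease that trims the stem-loop, fell by 0.42.

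Of 24 genes of histone chaperones and import, 9 fell (37.5%) and 1 rose (4.17%) with SA against OA at 20 h. Of all genes, 8.95% fell and 7.72% rose. Asf1b, a chaperone of H3 and H4 in dividing cells, fell by 1.36 ± 0.10 (SE), Mms22l by 0.82, Nap1l1 by 0.61 and the histone acetyltransferase gene Hat1 by 0.59, whereas Asf1a, the paralog of Asf1b, rose by 0.40. Chaf1b of the chromatin assembly factor fell by 0.43, and Chaf1a (-0.27) and Nasp (-0.20) did not pass. With LPS 11 fell (45.8%) and 3 rose (12.5%), against 13.2% and 9.22% of all genes. Chaf1b fell by 0.78, Asf1b by 0.73, Chaf1a by 0.71 and Nasp by 0.40, and the H3.3 chaperone gene Daxx rose by 2.40 ± 0.10 (SE). At 5 h, SA against OA gave 2 falls, Asf1b (-0.46) and Chaf1a (-0.39), and 1 rise, Tlk2 (0.37). These were 8.33% and 4.17% of the list, against 2.37% and 3.3% of all genes, so the share that rose is near that of all genes.

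Genes of histone variants, which lie outside the member rule, moved in part. Of 9 measured, 4 fell with SA against OA at 20 h (44.4%, against 8.95% of all genes). The centromeric H3 gene Cenpa fell by 1.39 ± 0.11 (SE), H2az2 by 0.90, H2az1 by 0.51 and the H3.3 gene H3f3a by 0.34. H3f3a averaged 4.37 with OA and 4.03 with SA, near the array median of 4.04, so the size of its change is uncertain. H2ax, whose product marks DNA damage when phosphorylated, had a change of -0.11 (-0.30 to 0.09). With LPS 5 fell (55.6%, against 13.2% of all genes), among them Cenpa by 0.92, H2az2 by 0.87 and H2ax by 0.70. Only 1 rose (11.1%, against 9.22%). None of these lists had a member past the test for OA against vehicle.

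Most genes of S phase also fell with 20 h of SA and with LPS. Of 32 measured, 31 fell with SA against OA at 20 h (96.9%, median -0.85). With LPS 26 fell (81.2%) and 1 rose (3.12%), with a median of -0.57, and 26 fell within SA from 5 h to 20 h (81.2%). Of all genes, 8.95%, 13.2% and 6.57% fell in these 3 comparisons, and 9.22% rose with LPS. Cyclin A2 (Ccna2) fell by 2.39 ± 0.09 (SE) and 1.39 ± 0.10 (SE) in the first and second of these. The lists are not separate, since Mcm2 was also counted among the chaperones and Slbp with the message end. Slbp was the S phase gene that did not pass with SA against OA at 20 h. At 5 h, 10 of the 32 fell with SA against OA (31.2%, median -0.32), while 1 of the 27 histone genes did (3.7%), against 2.37% of all genes. Averaged per array, the 32 genes ran from 5.84 to 5.93 with 20 h of OA, from 4.83 to 4.97 with 20 h of SA, from 5.74 to 5.84 with vehicle and from 5.17 to 5.32 with LPS. The 27 histone genes averaged 5.94 to 6.10, 5.11 to 5.40, 5.98 to 6.06 and 5.31 to 5.52 in these groups. With 5 h of SA the S phase average was 5.53 to 5.67, below all OA and vehicle arrays, and the histone average 5.92 to 6.08 overlapped them. The part of S phase entry in the histone changes was not tested.

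**Figure D5:**
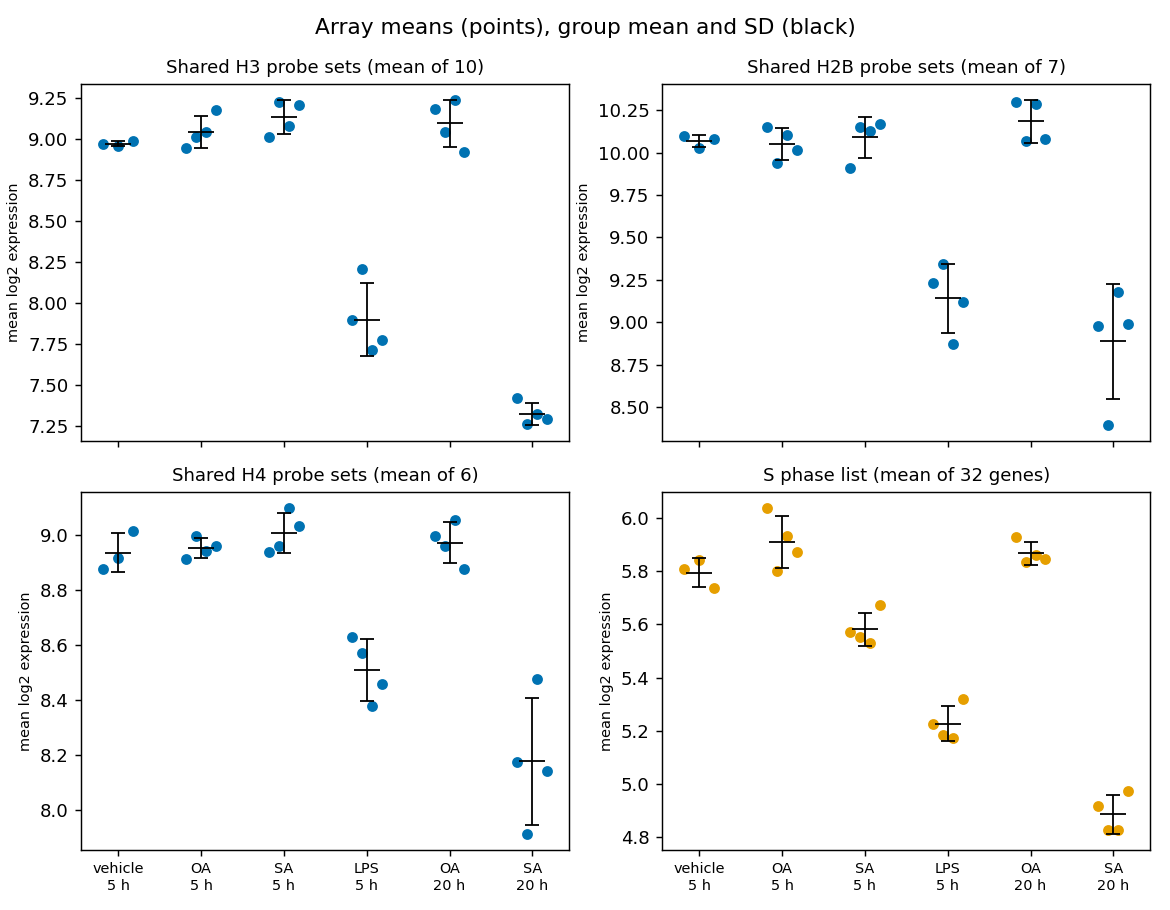
Mean log2 expression per array (points; y axis) by group (x axis), with the group mean and SD in black, for probe sets that name several H3, H2B or H4 genes and for 32 S phase genes. All panels are lower with LPS and with 20 h of SA, and the S phase panel is also lower with 5 h of SA (5.53 to 5.67).

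Across the 23 arrays, Pearson's r with the S phase average was highest for H1f5 (0.961), H2bc14 (0.912), H2bc18 (0.909) and H2bc3 (0.902). It was 0.180 for H2bc4, 0.435 for H2bc21 and -0.405 for H1f6. These values describe arrays that share 6 group means and are no independent points.

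The labelled cell type was checked against markers. All 11 macrophage markers lay above the array median. Their average ran from 9.95 to 10.01 with vehicle, 9.98 to 10.07 with LPS, 10.04 to 10.06 with 20 h of OA and 9.41 to 9.50 with 20 h of SA. In the comparison of SA with OA at 20 h, 7 of the 11 fell, against 8.95% of all genes. With LPS 4 fell and 2 rose, against 13.2% and 9.22% of all genes. Of 10 neutrophil markers 8 lay above the array median, with an average of 6.86 to 6.98 with OA and 6.71 to 6.92 with SA at 20 h, and none passed there. Above it were 2 of 9 lymphocyte, 2 of 8 dendritic cell, 2 of 8 stromal, 3 of 7 progenitor, 0 of 4 erythroid and 0 of 6 mast cell markers. Within SA from 5 h to 20 h, 6 macrophage markers fell and 2 rose, and 6 neutrophil markers rose and 0 fell. Of all genes 6.57% fell and 6.23% rose. Within OA over time, 1 macrophage marker fell and 3 rose, and 3 neutrophil markers rose, against 1.8% lower and 2.58% higher of all genes. At 5 h, 4 macrophage markers fell with SA against OA and 0 rose, against 2.37% and 3.3% of all genes. The part of the cell makeup in the histone changes was not tested.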

How the data were processed

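The authors' deposited values were log2 expression per probe set for 23 arrays. Per the submitters' processing notes RMA was used, and limma is also named. RMA subtracts background, forces all arrays to share a distribution and combines probes, so a shift of most genes at once would be removed. Of 35556 probe sets, 21789 carried 1 symbol, and the probe set of highest mean was kept for each of 19938 genes. With limma 3.58.1 in R 4.3.3, a mean per group was fitted on all 23 arrays. P-values were two-sided and adjusted by Benjamini-Hochberg over all genes of a comparison, with calls at 0.05. The number of arrays, 3 or 4 per group, limits the precision.

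Members, gene lists and comparisons were chosen with earlier results of these data known. Members were named by the 6 largest called changes per comparison and values were given for the 12 largest falls above the array median. Up to 4 called genes per list, and fixed anchors such as Slbp and Npat, were named. H2bc4, H2bc8, H2bc21 and members that missed a call were named after their values were seen. Alternatives were a variance trend, array centring, quantile normalisation, array weights, a filter on the dimmest 25% of genes, other probe set choices, all probe sets, only the compared groups in the fit, leaving out each array, and a block for the replicate number. The fit was tested on simulated data. Figures used Python 3.11.15 and matplotlib 3.10.9.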

Additional observations from a re-analysis of the deposited data

Results flagged for a closer look

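In 4 of 135 sets of 4 arrays (a histone gene in a group), 1 array lay far from the others by Dixon's test, where chance gives about 1 in 20, or 6.75. H2bc21 measured 5.24 on LPS replicate 4, against 4.72 to 4.81 on the others. H2bc22 measured 3.85 on 5 h OA replicate 4, against 4.42 to 4.53. H2bc3 measured 5.34 on 20 h OA replicate 4, against 5.71 to 5.77. H2bc8 measured 6.87 on LPS replicate 2, against 6.42 to 6.49.

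The difference between SA and OA changed from 5 h to 20 h in 11 members by the interaction test of limma (adjusted p under 0.05). The log2 values were -2.40 for H2ac4, -2.07 for H1f1, -1.89 for H1f5, -1.75 for H2bc14, -1.34 for H2bc3, -1.17 for H2bc9, -1.16 for H2ac15, -1.11 for H4c3, -1.01 for H4c4, -0.93 for H2bc1 and -0.68 for H2bc18.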

How the results depend on the processing

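Of 596 recomputed counts, 560 stayed within 1.5 times the reported one, and no named change reversed. With every probe set that names family genes alone (44) or any family gene (53, added after seeing the data), the number lower in SA against OA at 20 h was 32 and 41. It was 26 and 35 for the interaction, 30 and 39 for LPS, and 31 and 40 for SA over time. It was 15 and 15 below for the SA minus LPS contrast. These counts rise with the number of probe sets. The 1 member higher with SA at 20 h became 0 with a variance trend, array centring, quantile normalisation and the compared groups alone. The 1 higher for SA over time became 2, 0, 2 and 0 under these, and 0 and 0 over all probe sets; the cause was not tested.

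Leaving out each array gave 14 to 16 lower and 0 to 1 higher for SA against OA at 20 h, 1 to 3 lower at 5 h, and 11 to 13 lower for the interaction. It gave 15 to 18 lower for LPS, 15 to 16 lower and 0 to 1 higher for SA over time, 0 to 1 lower for SA against vehicle, and 3 to 7 below and 2 to 3 above for the contrast. The number below the array median was 5 under both alternatives run. Deviations of same-numbered arrays from their group means correlated with r from -0.124 to 0.201 (55 pairs, median 0.017, 7 over 0.1). Between OA and SA at 20 h, r was 0.114, 0.201, 0.025 and 0.11. Arrays of different numbers were not correlated for reference, so this check cannot decide whether the numbers pair the samples. With a replicate block, 15 members fell and 1 rose with SA against OA at 20 h, 17 fell with LPS, and 5 lay below in the contrast, H2bc14 losing its call.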
